A study of Mus musculus with 3 samples.

Results

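The cells described here are 172 cells of the mouse cochlea at postnatal day 7 (P7) that carried epithelial transcripts together with markers of the outer sulcus and of Reissner's membrane. They were chosen from the unique molecular identifier (UMI) counts of the P7 library. A cell qualified with at least 500 genes and at most 20% mitochondrial UMIs, at least 1 UMI of Epcam or Cdh1, at least 1 UMI of Slc26a4, Lmx1a, Otx2 or Vmo1 (or at least 10 UMIs of Crhbp), and no UMI of Sox2, Otoa or Cdh5. These 172 rule cells were 2.37% (exact binomial 95% interval 2.03 to 2.74) of the 7262 P7 cells that passed the first 2 limits, and the series held 13637 such cells in all. The series consists of 1 library of P7 cochleae and 2 libraries of embryonic day 15 (E15) cochleae, all from wildtype C57BL/6J mice with no added allele or agent. Whole cochleae were dissociated with papain and thermolysin, sorted to remove debris and read out cell by cell with droplet RNA sequencing of transcript 3' ends. Under the same rule, 44 of 2838 cells (1.55%, 1.13 to 2.08) qualified in the first E15 library and 60 of 3537 (1.70%, 1.30 to 2.18) in the second. The sources used here do not give the number or sex of animals in a library. P-values across libraries therefore measure only the spread between these libraries, pooled over genes, and this spread may be technical.

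The cochlear duct is a closed epithelial tube filled with potassium-rich endolymph. Reissner's membrane is its thin roof, a sheet of flat epithelial cells that separates endolymph from perilymph and absorbs sodium. The outer sulcus lines the outer wall between the organ of Corti and the stria vascularis, and its root cells reach into the spiral ligament. Slc26a4 encodes pendrin, the anion exchanger that secretes bicarbonate into endolymph and is mutated in Pendred syndrome. Otx2 and Lmx1a encode homeodomain transcription factors of nonsensory inner ear epithelium, Crhbp encodes a secreted protein that binds corticotropin-releasing hormone, Anxa1 encodes a calcium-dependent membrane-binding protein, and Vmo1 encodes a secreted protein first known from the egg's vitelline membrane.

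The rule cells were deep, with a median of 16888.5 UMIs per cell at P7, against 17747.5 and 12636.5 UMIs in the E15 libraries. Their summed UMIs came to 3322866 at P7, against 837374 and 1051974 in the E15 libraries. One cell of E15 replicate 2 held 219941 UMIs, 20.9% of the summed UMIs of that library's rule cells, and the next held 42728. The P7 library shared 6 barcodes with each E15 library and the E15 libraries shared 3, none of them among rule cells. All values from P7 rest on 1 library, so levels there carry intervals for counting error only.

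The values that chose the cells lay close to the limits in many of them. Of the 172 cells, 39 had exactly 1 UMI of Epcam and Cdh1, 15 had 2 and 118 had at least 3. Over Slc26a4, Lmx1a, Otx2 and Vmo1 together, 69 cells had exactly 1 UMI and 77 had at least 6. A single UMI on both sides admitted 30 cells, and Crhbp alone admitted 0. Just outside the limits, 123 further cells had been left out for a UMI of Sox2 (30 cells), Otoa (89) or Cdh5 (19), of which 38 carried only 1 such UMI. Among the 5306 P7 cells without Epcam or Cdh1, 314 carried 1 UMI of the 4 markers and 3 carried at least 6. A level outside the epithelium was taken from 697 endothelial cells (Cdh5 present, no Epcam or Cdh1, median 11789 UMIs). It can hold their own expression as well as free RNA, and these were not told apart. Of these cells 6.03% had a Vmo1 UMI, against 0.574% for Slc26a4, 0.287% for Lmx1a, 0% for Otx2 (an upper limit of 0.528%), 3.01% for Crhbp and 37.7% for Anxa1. Among rule cells (median 16888.5 UMIs) the shares were 64.0% for Vmo1, 51.2% for Slc26a4, 51.7% for Lmx1a, 28.5% for Otx2, 26.2% for Crhbp and 34.9% for Anxa1. The share with Anxa1 was thus below that in endothelial cells, while its summed level was 1490 CPM (counts per 1000000 UMIs of the group) in rule cells and 97.8 CPM in endothelial cells.

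**Figure D1:**
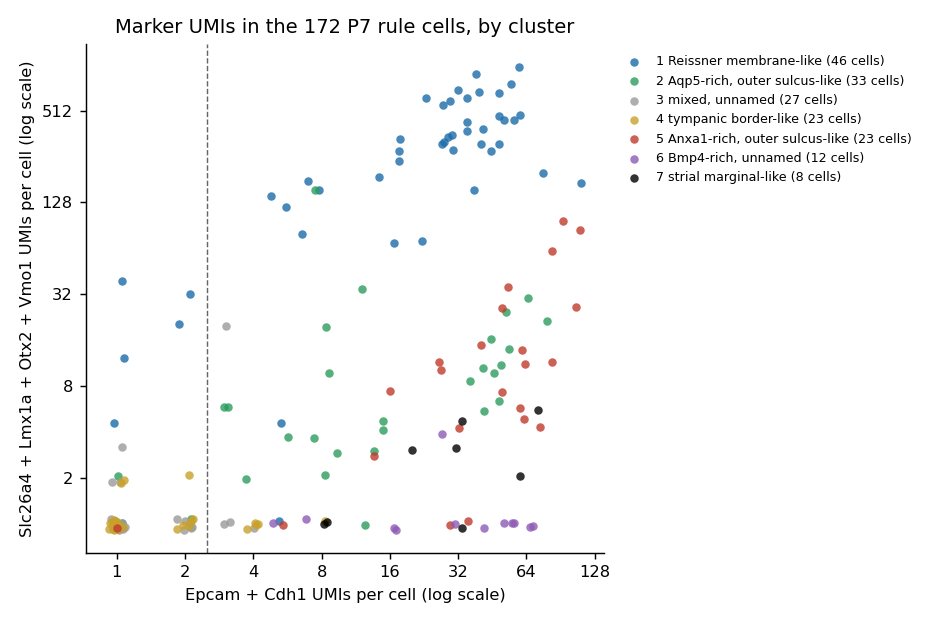
Each point is 1 of the 172 P7 rule cells, with its UMIs of Epcam and Cdh1 on the x axis and its UMIs of Slc26a4, Lmx1a, Otx2 and Vmo1 on the y axis (both log scales, small random shifts added to separate points), coloured by cluster. The dashed line divides the 54 cells with 1 or 2 epithelial UMIs from the 118 with at least 3, and most cells of clusters 3 and 4 lie left of it with a single marker UMI.

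Leiden clustering of the 172 cells gave 7 clusters, which account for every rule cell. Only some of them carried the tissue that the label names. Cluster 1 (46 cells) was Reissner membrane-like, and clusters 2 (33 cells) and 5 (23 cells) were both outer sulcus-like but differed from each other. The name of cluster 5 is not clear-cut. It had 6 of 10 outer sulcus markers in at least 20% of cells (summed 10272 CPM, of which Anxa1 9583 CPM). At that share it also had 7 of 8 Reissner membrane markers (1869 CPM), as did cluster 1 (21360 CPM). Cluster 5 further had 6 of 8 strial marginal markers at that share (851 CPM), against 8 of 8 in cluster 7 (6263 CPM). The outer sulcus sum did not set cluster 5 apart. That sum was 10383 CPM in cluster 1, of which Crhbp 10151 CPM, with 3 of 10 markers at that share. Clusters 2 and 6 each had 5 of 10 outer sulcus markers at that share. Cluster 7 (8 cells) carried markers of strial marginal cells, the potassium-secreting cells of the stria vascularis, and cluster 6 (12 cells) stayed without a name. Clusters 3 (27 cells) and 4 (23 cells) had a median of 1 epithelial UMI per cell, against 28.5, 9, 52, 37.5 and 30.5 UMIs in clusters 1, 2, 5, 6 and 7. Because the clusters were made from the expression of these same cells, cluster levels are a description with no test. For this reason results below are given for all rule cells. The main counts and some lists and genes are also given for those with at least 3 epithelial UMIs, a limit chosen after the data were seen.

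Cluster 1 held most of the Vmo1, Crhbp and Otx2 UMIs, and the rule used all 3 genes. Vmo1 stood at 19682 CPM there and was seen in all 46 cells, and 96.7% of the rule cells' Vmo1 UMIs lay in this cluster. Crhbp stood at 10151 CPM in 40 cells of cluster 1 and held 99.6% of its UMIs there, while it was at 0 in cluster 2 and at 28.4 CPM in cluster 5. Otx2 reached 301 CPM in 39 cells of cluster 1, 36.6 CPM in 8 cells of cluster 5 and 9.79 CPM in 2 cells of cluster 2. Crhbp, given as a marker of the whole population, was thus a gene of cluster 1. Slc26a7, which encodes a chloride and bicarbonate transporter, stood at 624 CPM in cluster 1, and Rnase1, a secreted ribonuclease, at 5891 CPM. Transthyretin (Ttr), the thyroid hormone carrier secreted by choroid plexus, reached 1895 CPM but came from 20 of the 46 cells.

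The pendrin-positive cells of clusters 5 and 2 carried different partner genes. Most cells of the Reissner membrane-like cluster also had a Slc26a4 UMI, at a lower summed level that is given below. In cluster 5, Slc26a4 stood at 325 CPM in 18 of 23 cells, beside Anxa1 at 9583 CPM in 21 cells. This cluster held 95.3% of the rule cells' Anxa1 UMIs, 76.5% of those of Anxa5 and 70.7% of those of Anxa2. It also carried Bpifb3 at 544 CPM in 18 cells, the ATP-gated channel gene P2rx2 at 148 CPM in 19 cells, Dpp10 at 108 CPM in 18 cells and the homeobox genes Hmx2 and Hmx3 at 179 and 112 CPM. In cluster 2, Slc26a4 stood at 294 CPM in 29 of 33 cells, whereas Anxa1 was at 9.79 CPM in 3 cells. The secretogranin gene Scg2 led this cluster at 4828 CPM in 24 cells. The matrix proteoglycan genes Epyc (6513 CPM) and Lum (5475 CPM) were each seen in 28 of its cells. The water channel gene Aqp5 reached 1630 CPM in 16 cells of cluster 2, the otolin gene Otol1 458 CPM in 20 cells, and the inwardly rectifying channel gene Kcnj16 149 CPM in 17 cells. The glial gene Pmp22 was also seen in cluster 2, at 1330 CPM in 11 cells, and the part of glial RNA in that cluster was not tested.

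The remaining clusters carried other types' genes. Cluster 6 held Bmp4 at 1775 CPM in 10 of 12 cells with Gata3 at 1158 CPM, Epyc at 5380 CPM, Lum at 4386 CPM and the activin antagonist gene Fst at 553 CPM. It held 87.6% of the Bmp4 UMIs and had Slc26a4 at 14.9 CPM in 4 cells. Cluster 7 held the potassium channel subunit Kcne1 at 2283 CPM in all 8 cells, its partner Kcnq1 at 561 CPM, the sodium-potassium-chloride cotransporter Slc12a2 at 4556 CPM and Esrrb at 349 CPM in 7 cells. It had no UMI of Slc26a4, Otx2 or Vmo1 and had been admitted by Lmx1a (108 CPM in 8 cells), and its median share of mitochondrial UMIs was 11.97%, against 3.85% to 6.61% in the other clusters. Cluster 4 carried Emilin2 at 3307 CPM and Rarres1 at 879 CPM, genes of the tympanic border cells below the basilar membrane, and the mesenchymal factor Pou3f4 at 381 CPM. Cluster 3 combined Otos, the fibrocyte gene otospiralin, at 23977 CPM in 22 of 27 cells with the bone gene Bglap at 2694 CPM in 8 cells. All 23 cells of cluster 4 and 23 of 27 cells of cluster 3 had a Vmo1 UMI, at summed levels of only 43.9 and 85.7 CPM. Epcam stood at 13.5 and 31.9 CPM in clusters 4 and 3. The label therefore fits the markers of clusters 1, 2 and 5 and goes against those of clusters 3 and 4. It also leaves out the strial marginal markers of cluster 7. There 8 of 8 of these were seen in at least 20% of cells, beside 5 of 8 of Reissner's membrane. Cluster 6 had no name to set against the label. The 6 markers of keratinocytes or middle ear epithelium were all at 0 UMIs in the P7 rule cells.

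**Figure D2:**
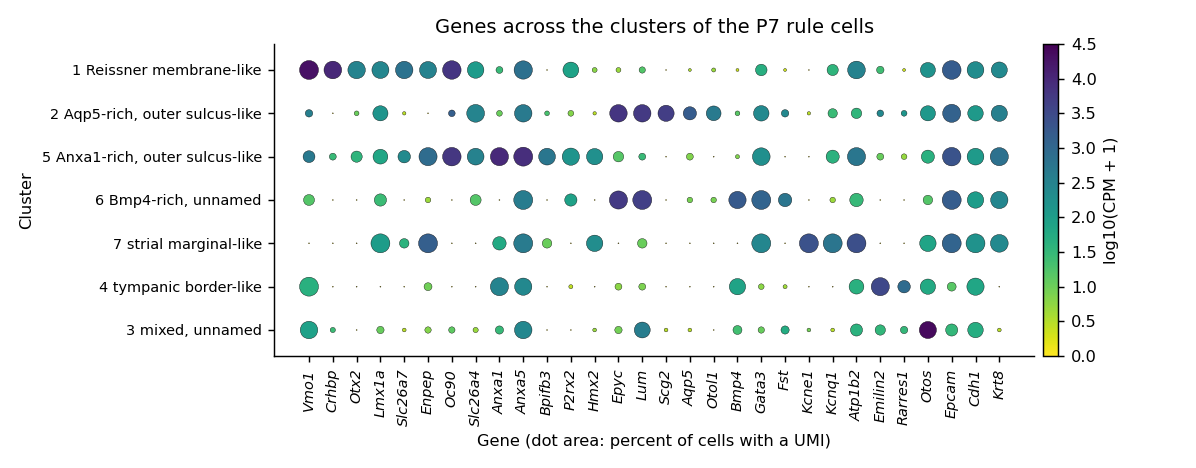
Genes (x axis) against the 7 clusters of P7 rule cells (y axis), where dot area gives the percent of cells with a UMI and colour the level as log10(CPM + 1). Vmo1 and Crhbp are darkest in cluster 1, Anxa1 and Bpifb3 in cluster 5, Scg2 and Aqp5 in cluster 2 and Kcne1 in cluster 7.

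The promoter windows of the marker genes of clusters 1, 2 and 5 are shown here as sequence context for the genes on which these groups rest. Each runs 5′ to 3′ along the gene from 250 bases before to 50 after a start annotated by RefSeq on GRCm38.p6, and capitals mark matches to the homeodomain motif GGATTA bound by OTX factors or to the TATA box letters TATAAA, searched on both strands. The windows are chr11:70514567-70514866 for Vmo1, chr13:95444782-95445081 for Crhbp, chr12:31559935-31560234 for Slc26a4 and chr19:20390622-20390921 for Anxa1, all on the minus strand.
Vmo1: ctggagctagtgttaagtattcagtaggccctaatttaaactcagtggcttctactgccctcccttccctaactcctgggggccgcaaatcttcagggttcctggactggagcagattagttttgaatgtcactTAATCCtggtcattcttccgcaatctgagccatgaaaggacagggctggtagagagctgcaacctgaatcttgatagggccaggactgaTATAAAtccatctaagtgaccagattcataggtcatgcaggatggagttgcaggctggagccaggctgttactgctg
Crhbp: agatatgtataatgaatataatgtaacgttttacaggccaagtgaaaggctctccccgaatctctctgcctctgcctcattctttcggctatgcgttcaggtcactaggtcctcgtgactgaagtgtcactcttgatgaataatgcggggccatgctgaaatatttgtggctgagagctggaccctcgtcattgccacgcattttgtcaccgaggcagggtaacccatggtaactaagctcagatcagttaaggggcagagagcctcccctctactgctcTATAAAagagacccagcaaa
Slc26a4: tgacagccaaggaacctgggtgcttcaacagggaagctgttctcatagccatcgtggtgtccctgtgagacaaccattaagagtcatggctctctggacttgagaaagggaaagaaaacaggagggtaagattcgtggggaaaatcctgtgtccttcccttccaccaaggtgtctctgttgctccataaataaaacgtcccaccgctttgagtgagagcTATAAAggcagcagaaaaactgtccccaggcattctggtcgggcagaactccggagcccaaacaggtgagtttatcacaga
Anxa1: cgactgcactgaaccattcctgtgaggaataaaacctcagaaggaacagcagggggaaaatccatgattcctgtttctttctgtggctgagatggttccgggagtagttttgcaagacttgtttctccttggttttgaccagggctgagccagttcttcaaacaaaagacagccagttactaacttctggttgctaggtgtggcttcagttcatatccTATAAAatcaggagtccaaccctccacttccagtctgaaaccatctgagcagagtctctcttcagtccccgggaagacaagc
The Vmo1 window held GGATTA on the opposite strand at -116 (printed as its reverse complement) and TATAAA at -27, counted to the first base of the match from the annotated start. TATAAA lay at -31 in the Slc26a4 window, at -32 in that of Anxa1 and at 30 in that of Crhbp. Over all 32851 RefSeq windows of this length, 7.06% held GGATTA and 13.6% held TATAAA on either strand, so these matches describe the letters and not a bound site.

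The rule genes overlapped within cells to different extents, which is a description of the values that chose the cells. Among rule cells with at least 3 epithelial UMIs, Slc26a4 and Otx2 were seen together in 40 of 118 cells at P7, against 2 of 40 and 1 of 50 cells in the E15 libraries. Slc26a4 and Vmo1 shared 41 of 118 cells at P7 and 0 cells in either E15 library. Counted singly, Slc26a4 was seen in 80 of the 118 cells at P7, and in 13 of 40 and 8 of 50 at E15. Vmo1 was seen in 65, 2 and 4 of these cells, and Otx2 in 47, 13 and 29. With so few E15 cells holding Vmo1, the 0 shared cells cannot show whether the overlap differed with age. In cluster 1, Slc26a4 had a UMI in 35 of 46 cells at a level of 110 CPM. Shares of cells with a UMI move with depth, and the median depth of these cells was 19484 UMIs at P7, against 17456 and 12390 in the E15 libraries. Sorting the 172 P7 cells by the marker that admitted them gave 68 with Otx2 or Vmo1 but no Slc26a4, 45 with Slc26a4 but neither Otx2 nor Vmo1, 43 with both kinds and 16 with only Lmx1a. The same split was 14, 11, 2 and 17 cells in the first E15 library and 34, 9, 1 and 16 cells in the second. When each cell was thinned to 2000 UMIs, the share that met the rule was 1.68% at P7 (461 shallower cells left out), against 0.732% (242 left out) and 0.853% (254 left out) in the E15 libraries. Of the thinned cells that met the rule, 75 of 114 at P7, against 15 of 19 and 22 of 28 at E15, also met it at full depth.

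The P7 cells with Slc26a4 but neither Otx2 nor Vmo1 (Slc26a4 cells) were set beside those with Otx2 or Vmo1 but no Slc26a4 (Otx2 or Vmo1 cells), where cells of either set may also carry Lmx1a. Scg2 stood at 3136 CPM in Slc26a4 cells and 0 CPM in Otx2 or Vmo1 cells, Aqp5 at 1061 and 2.38 CPM, Bpifb3 at 296 and 3.97 CPM, the carbonic anhydrase gene Car12 at 212 and 4.76 CPM and Otol1 at 270 and 6.35 CPM. In the other direction, Otos stood at 478 CPM in Slc26a4 cells and 8429 CPM in Otx2 or Vmo1 cells, Zic5 at 2.54 and 85.7 CPM, and Foxq1 at 1.27 and 72.2 CPM. With at least 3 epithelial UMIs, Zic5 stood at 2.69 and 50.3 CPM and Otos at 83.5 and 4220 CPM in the same order. All 46 cells of clusters 3 and 4 with a Vmo1 UMI belong to the Otx2 or Vmo1 group, and their part in these values was not tested beyond that limit.

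Within the P7 library, the rule cells were set beside 1784 other cells with an Epcam or Cdh1 UMI. Of 3538 genes with enough UMIs, 245 (6.92%) were past a fold of 2 higher in rule cells and 144 (4.07%) past a fold of 2 lower. With at least 3 epithelial UMIs in both sets, 267 of 3663 genes (7.29%) were past a fold of 2 higher and 249 (6.80%) lower. Against all other P7 cells, 344 of 3656 genes (9.41%) were past a fold of 2 higher and 265 (7.25%) lower. These are ratios within 1 library from which the cells were chosen, so they describe the cells and no test was made. The rule genes themselves stood at 120 CPM in rule cells and 6.79 CPM in other epithelial cells for Slc26a4, at 104 and 9.81 CPM for Lmx1a, at 75.2 and 10.3 CPM for Otx2, at 4620 and 406 CPM for Vmo1, and at 2313 and 191 CPM for Crhbp. Rule cells held 65.3% of all Slc26a4 UMIs of the P7 library, 53.7% of those of Lmx1a, 45.1% of Otx2, 55.7% of Vmo1 and 57.5% of Crhbp.

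Among other genes, Ccdc3 had the largest ratio, with 83.4 CPM in rule cells and 4.29 CPM in other epithelial cells (19.4-fold, exact interval 15.7 to 24.2). Lrp2, which encodes the endocytic receptor megalin, stood at 803 and 51.2 CPM (15.7-fold, 14.7 to 16.7). Enpep, the aminopeptidase that converts angiotensin, stood at 289 and 17.0 CPM (16.9-fold, 15.2 to 18.9). Both genes had UMIs in several clusters, with 60.9% of Lrp2 UMIs in cluster 1 and 24.9% in cluster 5, and 25.7%, 42.5% and 30.8% of Enpep UMIs in clusters 1, 5 and 7. Ecel1, a neutral endopeptidase family gene, stood at 377 and 25.9 CPM (14.6-fold), and 83.3% of its UMIs lay in cluster 5. Oc90, the otoconin gene of nonsensory otic epithelium, stood at 2598 and 277 CPM (9.39-fold, 9.11 to 9.68), and Dkk2, a secreted Wnt modulator, at 668 and 61.8 CPM (10.8-fold). Anxa1, which took no part in the rule, stood at 1490 CPM in rule cells and 136 CPM in other epithelial cells (10.98-fold, 10.5 to 11.5). The other genes of the 20 with the largest ratios lay between 8.70-fold for Cndp2 and 18.4-fold for Kcnq1, a channel gene of which 64.0% of UMIs came from the 8 cells of cluster 7. The 10 genes of lowest ratio were Tectb, Ocm, Calb1, Acbd7, Pvalb, the haemoglobin genes Hba-a1, Hba-a2, Hbb-bs and Hbb-bt, and the bone gene Ifitm5. Tectb, a tectorial membrane gene, stood at 12.3 CPM in rule cells and 1332 CPM in other epithelial cells, Ocm at 3.91 and 347 CPM, and Calb1 at 1.81 and 107 CPM. With at most 10% mitochondrial UMIs the log2 ratios of Ocm and Calb1 were -2.36 and -2.44, against -6.47 and -5.89 as given.

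**Figure D3:**
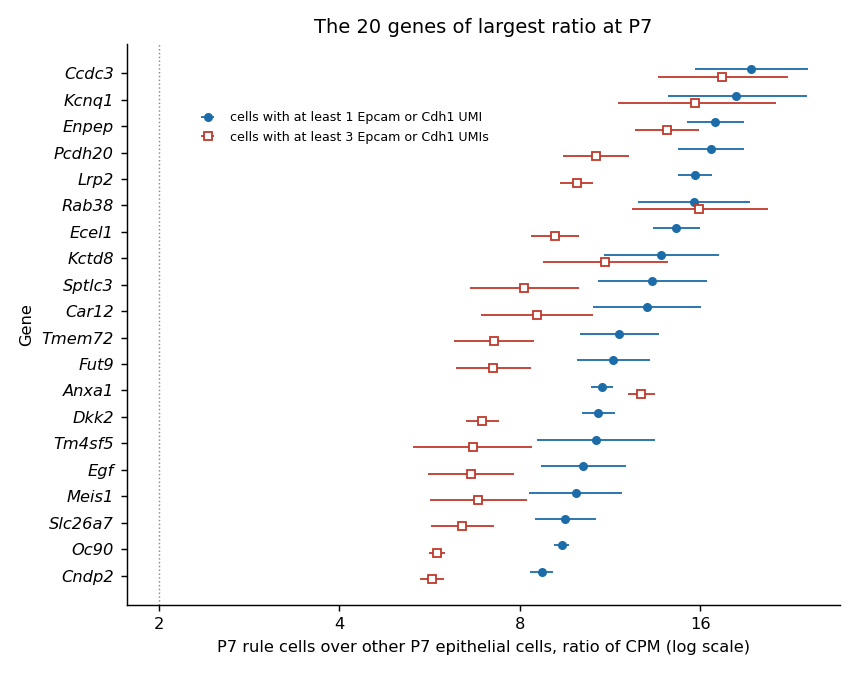
Ratio of CPM in P7 rule cells to CPM in other P7 epithelial cells (x axis, log scale) for the 20 genes of largest ratio (y axis), with exact 95% counting intervals. Filled circles use cells with at least 1 epithelial UMI and open squares those with at least 3; every gene stays past the dotted line at a fold of 2 in both sets, and Anxa1 has the higher ratio in the second set.

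The rule was made on P7 cells, but in the E15 libraries it chose cells from the E15 counts themselves. Some difference between chosen and other cells is therefore built in, and the values below give its size gene by gene. E15 rule cells were compared with the other E15 cells that had an Epcam or Cdh1 UMI (475 and 570 cells), with library as a block. Of 12026 genes tested with edgeR's quasi-likelihood test, 674 (5.60%) were called higher and 776 (6.45%) lower. A gene was called where its fitted fold reached 2 and its Benjamini-Hochberg adjusted p lay under 0.05. With at least 3 epithelial UMIs per cell, 327 of 10715 genes (3.05%) were called higher and 400 (3.73%) lower. Of the 20 genes with the largest P7 ratio, 16 could be tested, 13 were called higher and 0 lower. Rab38, Anxa1 and Dkk2 were not called.

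The strongest of these were large and alike in both libraries. Ecel1 stood at 272 and 354 CPM in the rule cells of E15 replicates 1 and 2, against 4.49 and 5.38 CPM in other epithelial cells (log2 difference 5.98 ± 0.18 SE, edgeR adjusted p = 3.8e-39). Oc90 stood at 6392 and 8557 CPM, against 252 and 490 CPM in other epithelial cells (4.40 ± 0.09, adjusted p = 4.6e-48). The rule cells of both libraries were above both others, with no overlap. Lrp2 stood at 194 and 219 CPM, against 4.23 and 7.85 CPM in other epithelial cells (5.12 ± 0.18). Enpep stood at 86.6 and 47.8 CPM in rule cells and 1.28 and 2.03 CPM in others, Ccdc3 at 50.5 and 39.2 CPM and 1.67 and 1.02 CPM, and Kctd8 at 154 and 183 CPM and 4.49 and 7.27 CPM. These genes were called higher with both limits. With at least 3 epithelial UMIs the log2 differences were 4.98 for Ecel1, 3.37 for Oc90, 4.06 for Lrp2, 5.03 for Enpep, 5.63 for Ccdc3 and 4.71 for Kctd8. Without E15 replicate 1 the log2 difference of Enpep was 4.42, against 5.32 ± 0.32 with both libraries. Anxa1 was at 2.41 and 10.5 CPM in E15 rule cells and at 3.97 and 1.16 CPM in others, and was not called (1.49 ± 0.63, adjusted p = 0.089). Dkk2 had 27.7 and 64.1 CPM in rule cells and 30.1 and 22.2 CPM in others and was called only with at least 3 epithelial UMIs, where its log2 difference was 2.64.

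Of 35 otic transcription factors tested at E15, 17 were higher in rule cells, 4 were lower and 14 were not called, against 5.60% higher and 6.45% lower over all genes (median log2 difference 1.17, against -0.005 over all genes tested). Gsc, which encodes the homeodomain protein goosecoid, stood at 164 and 269 CPM in rule cells, against 1.41 and 4.22 CPM in other epithelial cells (6.29 ± 0.20, adjusted p = 1.1e-37). Hmx3, needed for vestibular development, stood at 37.3 and 41.1 CPM in rule cells and 0.128 and 1.02 CPM in others (6.09 ± 0.46), Tbx3 at 42.1 and 67.0 CPM and 1.15 and 3.49 CPM (4.58 ± 0.32), and Otx1, the paralogue of Otx2, at 32.5 and 45.9 CPM and 1.92 and 2.33 CPM (4.19 ± 0.35). Pax2, an early otic gene, stood at 62.5 and 75.6 CPM in rule cells and 3.97 and 5.67 CPM in others (3.85 ± 0.26). Without E15 replicate 1 the value of Hmx3 was 5.04, and without replicate 2 it was 6.69. All of these stayed called with at least 3 epithelial UMIs, where the values ran from 2.85 for Pax2 to 5.32 for Gsc.

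Of 8 outer sulcus and root markers tested at E15, 4 were higher in rule cells (Aqp5, Dpp10, P2rx2 and Bmp4), Epyc was lower and 3 were not called. Over all genes 5.60% were higher and 6.45% lower. With at least 3 epithelial UMIs P2rx2 was not called (1.44). Aqp5 stood at 25.3 and 56.5 CPM in E15 rule cells, against 0.898 and 1.60 CPM in other epithelial cells (4.996 ± 0.38, adjusted p = 1.9e-17), and Dpp10 at 31.3 and 30.6 CPM, against 1.92 and 2.33 CPM (3.85 ± 0.38). Of 8 glial markers tested at E15, 4 were higher and 3 lower in rule cells, and the summed level of the 8 was 462 and 358 CPM in rule cells and 215 and 209 CPM in others. Bmp4 was higher at 498 and 124 CPM, against 75.5 and 68.8 CPM in others (1.88 ± 0.18), and its value was 0.87 without E15 replicate 1 and 2.72 without replicate 2. It was not called by DESeq2 (1.80) or with at least 2 UMIs on each side of the rule (0.85). Epyc was lower in E15 rule cells, with 6.01 and 3.83 CPM against 23.2 and 37.8 CPM in others (-2.67 ± 0.39, -1.48 without E15 replicate 2). All 4 tested markers of Reissner's membrane (Enpep, Otx1, Slc26a7 and Meis2) were called higher.

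Epithelial genes as a class were higher too, and the 2 sets differed in their epithelial content. Of 14 tested markers of otic epithelium 13 were called higher and 0 lower (median 2.04), and all 5 tested keratins were higher, among them Krt8 at 301 and 300 CPM in rule cells and 61.5 and 61.2 CPM in others. Markers of mesenchyme were lower for 8 of 9 tested genes, where 5.60% of all genes were higher and 6.45% lower. The summed level of the otic epithelium markers was 10494 and 12915 CPM in rule cells and 1553 and 1927 CPM in others, and that of the mesenchyme markers 873 and 667 CPM in rule cells and 2028 and 1975 CPM in others. The part of these other cells in the calls was not tested apart from the stricter limit. Under that limit, the log2 difference of Krt8 was 1.28, against 2.30 for all cells (0.99 and not called in cells richer in otic epithelium UMIs), and Cldn3, Cldn6 and Cldn7, which encode tight junction proteins, were called for all cells (2.00, 1.55 and 1.70) but not with at least 3 epithelial UMIs (0.97, 0.52 and 0.66).

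Some Notch and FGF genes were lower in E15 rule cells, a set from which the rule had removed every cell with a UMI of the prosensory gene Sox2. Jag1, the Notch ligand of the prosensory domain, stood at 10.8 and 17.2 CPM in rule cells, against 56.5 and 71.7 CPM in other epithelial cells (-2.17 ± 0.24, adjusted p = 4.8e-11). Fgf20 had 2 UMIs in all in rule cells, 0 and 1.91 CPM, against 30.3 and 26.3 CPM (26.7-fold lower, counting interval 7.33 to 221). Of 14 Notch pathway genes tested 0 were higher and 4 lower, and of 14 FGF pathway genes 2 were higher and 5 lower. Over all genes tested 5.60% were higher and 6.45% lower. Fgfr2 was among the higher ones, at 164 and 128 CPM in rule cells and 13.6 and 17.2 CPM in others (3.25 ± 0.17). The tectorial membrane gene Tectb had 0 CPM in the rule cells of both libraries, against 273 and 202 CPM in others, which is at least 150-fold lower by a floor of 3 counts over the rule cells, though DESeq2 did not call it. Cycling was lower as well, with 14 of 22 cell cycle genes called lower and 0 higher.

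**Figure D4:**
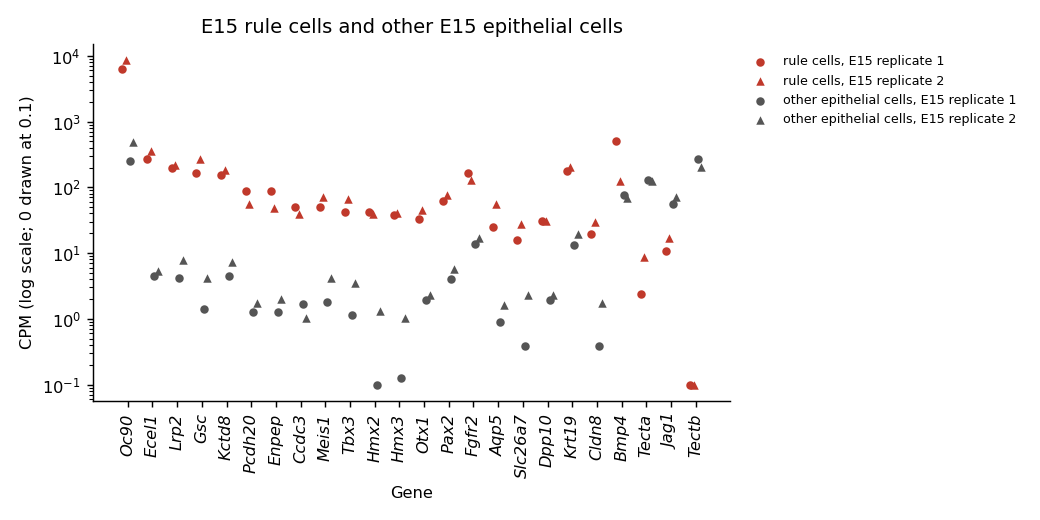
Level in CPM (y axis, log scale, 0 drawn at 0.1) of 24 genes (x axis) in rule cells (red) and in other epithelial cells (grey) of E15 replicate 1 (circles) and E15 replicate 2 (triangles). For all genes up to Bmp4 both red points lie above both grey points, and for Tecta, Jag1 and Tectb both lie below.

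Age was compared by setting the P7 rule cells against the rule cells of both E15 libraries. This fit takes the spread between the E15 libraries, pooled over genes, as that of P7 too. Its p-values rest on that pooled spread and on no P7 replicate. A difference of age cannot be told apart from one of library, Cell Ranger version or gene annotation. Of 10579 genes tested, 1840 (17.4%) were called higher at P7 and 1192 (11.3%) lower. With at least 3 epithelial UMIs 1748 of 10045 genes (17.4%) were higher and 1204 (12%) lower. The rule genes were not tested. Their levels in P7 rule cells, against those of E15 replicates 1 and 2, were 120 against 19.2 and 9.57 CPM for Slc26a4, 4626 against 24.1 and 11.5 CPM for Vmo1, 2316 against 0 and 1.91 CPM for Crhbp, 104 against 93.8 and 80.4 CPM for Lmx1a and 75.3 against 58.9 and 206 CPM for Otx2. In E15 replicate 2 the deepest cell held 104 of the rule cells' 215 Otx2 UMIs. The levels of all these genes describe cells that the same genes admitted, and nothing is read from them.

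The largest rises came from different clusters. Anxa1 stood at 1492 CPM at P7, against 2.41 and 10.5 CPM at E15 (7.91 ± 0.29, edgeR adjusted p = 4.4e-95), and its value was 9.78 with at least 3 epithelial UMIs and 6.91 without E15 replicate 1. Rnase1 stood at 1574 CPM at P7, against 1.20 and 0.957 CPM from 2 UMIs in all at E15 (1477-fold, counting interval 409 to 12199). Scg2 stood at 743 CPM at P7 and 0 CPM in both E15 libraries, at least 465-fold higher by a floor of 3 counts over the E15 cells, and nearly all of its UMIs lay in cluster 2. By the same floor Bpifb3 was at least 52.8-fold higher (84.4 CPM at P7, 95.7% of UMIs in cluster 5), Tmem72 at least 74.8-fold higher (120 CPM, 83.1% in cluster 1) and Hhatl at least 254-fold higher (406 CPM over clusters 1, 2 and 5). Spp1, which encodes osteopontin, was at least 543-fold higher with 868 CPM at P7, but 86.7% of its UMIs came from the 8 cells of cluster 7. The myelin genes Mag and Mog (154 and 87.4 CPM at P7, 0 CPM at E15) had 92.6% and 99.0% of their UMIs in cluster 3. There the UMIs came from only 2 cells for Mag and 1 cell for Mog, of 27. Both genes dropped out of the test with at least 3 epithelial UMIs.

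With 17.4% of all genes tested higher at P7 and 11.3% lower, the 20 genes that led the P7 ratios did not all move with age. Of these, 16 were higher at P7, 2 lower and 2 not called. Lrp2 rose to 804 CPM at P7, against 194 and 219 CPM at E15 (2.12 ± 0.21), and Enpep to 289 CPM, against 86.6 and 47.8 CPM (2.29 ± 0.23). Oc90 fell to 2601 CPM at P7, against 6392 and 8557 CPM at E15 (-1.36 ± 0.20, adjusted p = 3.9e-10). This fall was -0.95 with at least 2 UMIs on each side of the rule and -0.44 in cells with more otic epithelium than mesenchyme and fibrocyte UMIs, and was not called in either. Ecel1 stood at 378 CPM at P7 and 272 and 354 CPM at E15 (0.43 ± 0.21, not called). Dkk2 rose to 669 CPM at P7, against 27.7 and 64.1 CPM (3.99 ± 0.24, 3.34 without E15 replicate 1).

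Most potassium channel and pump genes were higher at P7, where 17.4% of all genes tested were higher and 11.3% lower. Of 14 tested potassium channel and pump genes, 12 were higher and 0 lower, with a median log2 change of 2.94 against 0.008 over all genes tested. With at least 3 epithelial UMIs 10 of 14 were higher. Atp1b1, a beta subunit of the sodium pump, stood at 771 CPM at P7, against 131 and 110 CPM at E15 (2.84 ± 0.22). The UMIs of Atp1b1 were spread over clusters 1, 2 and 5, with 28.4%, 44.6% and 17.0%. Other members rested on the strial marginal-like cells. Kcne1 stood at 141 CPM at P7, against 4.81 and 1.91 CPM at E15 (5.59 ± 0.38, 4.30 without E15 replicate 2), with 98.9% of its P7 UMIs in cluster 7. Its value was 3.52 with at most 10% mitochondrial UMIs, and in cells with more otic epithelium than mesenchyme and fibrocyte UMIs it was 1.84 and not called. Slc12a2 rose to 404 CPM at P7, against 21.7 and 25.8 CPM (4.24 ± 0.26), with 69.1% of UMIs in cluster 7, and its value was 3.13 under the mitochondrial limit of 10%.

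Transporters of acid, base, sodium and water changed gene by gene. Of 10 tested genes of pendrin's acid-base group, 4 were higher and 1 lower, against 17.4% higher and 11.3% lower over all genes. Car12 rose to 71.1 CPM at P7, against 8.42 and 3.83 CPM (3.74 ± 0.37, 2.73 without E15 replicate 2), and Slc26a7 to 179 CPM, against 15.6 and 27.8 CPM (3.17 ± 0.27). The sodium channel subunit Scnn1b rose to 51.5 CPM, against 4.81 and 2.87 CPM (3.92 ± 0.42, 2.85 without E15 replicate 2), with 64.3% of its UMIs in cluster 1. In the sodium and corticosteroid list 5 of 8 genes were higher and 1 lower. Sgk1, the glucocorticoid-induced kinase that raises sodium channel activity, rose to 335 CPM, against 78.2 and 27.8 CPM (2.86 ± 0.24, 3.50 without E15 replicate 1 and 2.06 without replicate 2; not called by DESeq2). Fkbp5, also induced by glucocorticoids, fell to 2 UMIs at P7 (0.603 CPM), against 32.5 and 17.2 CPM (39.8-fold lower, counting interval 10.4 to 339). Fkbp5 was also at 3.69 CPM in all other P7 cells, against 31.2 and 30.0 CPM in all other E15 cells. Aqp5 rose to 253 CPM at P7, against 25.3 and 56.5 CPM (2.76 ± 0.25, 2.12 without E15 replicate 1), and 99.0% of its P7 UMIs lay in cluster 2.

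Annexin and S100 genes were higher for 11 of 13 tested members and lower for 0 (median 2.75). Anxa5 stood at 1608 CPM at P7, against 227 and 272 CPM at E15 (2.85 ± 0.20), and S100a1 at 1786 CPM, against 83.0 and 47.8 CPM (4.95 ± 0.23). The keratins did not move together. Krt7 was higher, Krt19 was lower at 55.1 CPM against 176 and 204 CPM (-1.62 ± 0.25, and -0.98 and not called in cells richer in otic epithelium UMIs), and Krt8 stood at 251 CPM, against 301 and 300 CPM (-0.10 ± 0.22, not called). Of 17 tight junction genes 5 were higher and 1 lower, where 17.4% and 11.3% of all genes were. Cldn8 rose to 184 CPM, against 19.2 and 29.7 CPM (3.04 ± 0.27), and Cldn6, a claudin of embryonic epithelia, fell to 13.9 CPM, against 238 and 247 CPM (-3.96 ± 0.30, adjusted p = 2.3e-32). Cldn3 stood at 353 CPM, against 367 and 410 CPM (0.02 ± 0.22, not called).

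Collagen and retinoid genes also differed, where 17.4% of all genes tested were higher at P7 and 11.3% lower. The basement membrane collagen Col4a3 stood at 178 CPM at P7, against 1.20 and 0 CPM from 1 UMI at E15 (334-fold, counting interval 59.6 to 13199), and 7 of 17 basement membrane genes were higher and 1 lower. Col4a3 is a gene of Alport syndrome, in which hearing is lost. Of 13 retinoic acid pathway genes 6 were higher and 3 lower. Dhrs3, which reduces retinaldehyde, rose to 131 CPM, against 6.01 and 2.87 CPM (5.07 ± 0.36, 3.96 without E15 replicate 2), with 87.3% of its UMIs in cluster 1. Cyp26a1, which degrades retinoic acid, had 0 CPM at P7, against 8.42 and 58.4 CPM at E15, at least 40.1-fold lower by a floor of 3 counts over the P7 cells. That bound uses the pooled E15 level of 36.2 CPM, which rests mainly on replicate 2, and against replicate 1 alone it would be lower.

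Cell cycle and fetal growth genes were lower at P7. All 22 tested cell cycle genes were lower (median log2 change -4.65, or -4.06 with genes at 0 set at their bound), and 21 of 22 with at least 3 epithelial UMIs. Top2a had 1 UMI at P7 (0.301 CPM), against 83.0 and 116 CPM at E15 (336-fold lower, counting interval 59.6 to 13341), and Hmgb2 fell to 83.2 CPM, against 528 and 708 CPM (-2.73 ± 0.25). Of 11 tested fetal growth genes 9 were lower and 0 higher (median -2.53). Igf2bp1 fell to 3.92 CPM, against 62.5 and 67.9 CPM (-3.88 ± 0.38), and Hmga2 to 14.8 CPM, against 230 and 140 CPM (-3.47 ± 0.30), with 95.9% of its P7 UMIs in cluster 6. Both were also lower at P7 in all cells outside the rule. There Igf2bp1 stood at 0.908 CPM, against 55.7 and 56.2 CPM at E15, and Hmga2 at 2.02 CPM, against 101 and 93.6 CPM. Gsc fell to 21.1 CPM at P7, against 164 and 269 CPM (-3.20 ± 0.28, adjusted p = 1.8e-24), its P7 UMIs lay mainly in clusters 5 (40.0%) and 7 (52.9%), and in all cells outside the rule it stood at 0.238 CPM at P7 and at 0.387 and 0.770 CPM at E15. Eya4, a deafness gene and cofactor of otic development, fell to 19.3 CPM, against 132 and 94.7 CPM (-2.38 ± 0.29). Tac1, which encodes substance P, had 0 CPM at P7, against 78.2 and 79.4 CPM, at least 87.2-fold lower. Of 32 otic transcription factors 3 were higher and 7 lower and 22 were not called, beside 17.4% higher and 11.3% lower over all genes. Bmp4 stood at 163 CPM at P7, against 498 and 124 CPM (-0.75 ± 0.24, under the fold of 2 and not called), so the E15 libraries lay on both sides of P7.

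Immediate early genes and markers of other cell types moved with age beside these results, where 17.4% of all genes tested were higher at P7 and 11.3% lower. Of 14 tested immediate early and dissociation genes 13 were higher at P7 and 0 lower, with Fos at 2593 CPM, against 575 and 568 CPM at E15, and at 3296 CPM in all other P7 cells, against 466 and 461 CPM. All 8 tested fibrocyte markers, 7 of 9 mesenchyme markers and 5 of 7 glial markers were higher at P7, and with at least 3 epithelial UMIs the counts were 7 of 8, 9 of 9 and 5 of 7. The summed level of the fibrocyte markers was 11556 CPM in P7 rule cells, against 342 and 540 CPM at E15, that of the mesenchyme markers 3656 CPM, against 873 and 667 CPM, and that of the glial markers 3235 CPM, against 462 and 358 CPM. Their part in the gene lists above was not tested beyond the stricter limit and the cluster shares given. Some of the largest falls had like values in the cells outside the rule. Rnasek, Atp6v0c, Ube2v1, Adnp and Rbm4 stood at 0.301, 1.81, 6.63, 10.8 and 4.52 CPM in P7 rule cells and at 0.397, 2.77, 6.32, 11.5 and 3.85 CPM in all other P7 cells, while in E15 replicate 1 they stood at 99.8, 290, 138, 164 and 52.9 CPM in rule cells and 98.0, 252, 137, 141 and 49.4 CPM in all other cells.

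**Figure D5:**
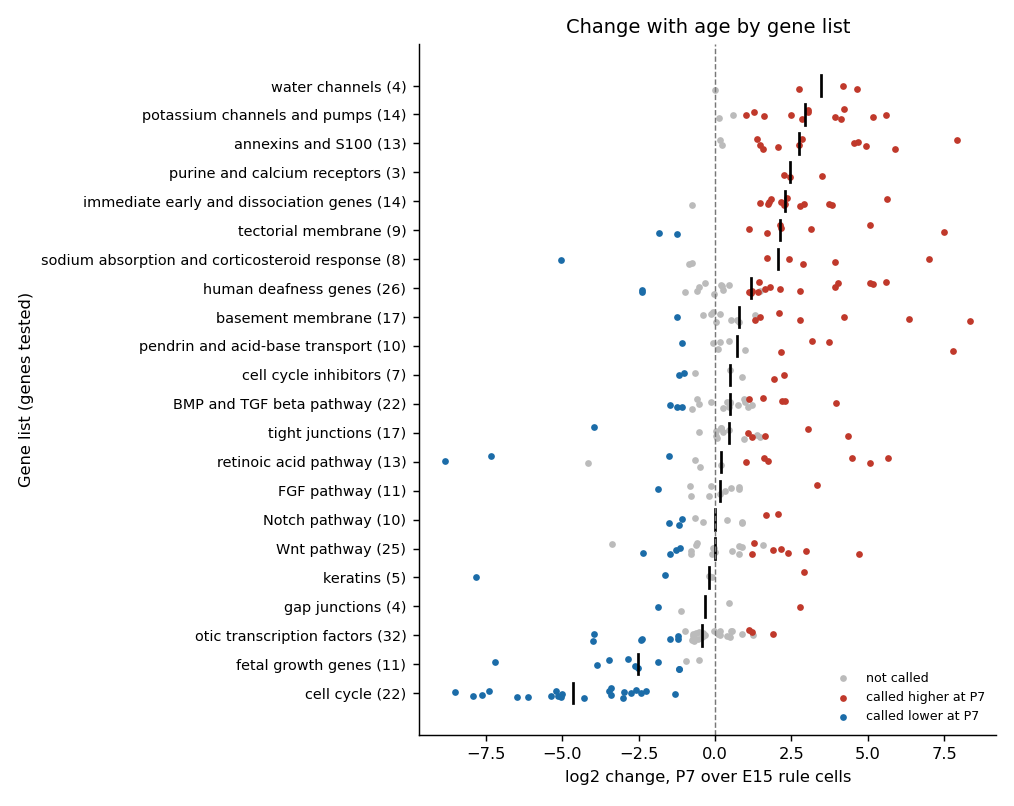
Log2 ratio of P7 rule cells to E15 rule cells (x axis) for each tested gene of 22 gene lists (y axis, with the number of genes tested), red where called higher at P7, blue where called lower and grey where not called. Black bars mark list medians and the dashed line the median of all genes tested (0.008); the potassium channel and pump list lies to the right with a median of 2.94 and the cell cycle list to the left with -4.65.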

How the data were processed

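Single-cell libraries of 1 P7 and 2 E15 cochlear samples were used as the authors deposited them, as filtered UMI counts per gene and cell. The file headers name Cell Ranger 3.1.0 for P7 and 6.1.2 for E15. The submitters' processing notes name 6.1.2 for every library, P7 included, and the genome build mm10. Which version was used for P7 was not settled. The barcodes numbered 8141 at P7 and 3234 and 3897 at E15, with 93829443, 46530036 and 44304364 UMIs in all. Cells under 500 genes (595, 365 and 350) or over 20% mitochondrial UMIs (284, 31 and 10) were left out. Scrublet called 3, 6 and 4 doublets, too few to rely on, so no cell was removed, and the highest-scoring cells were left out as an alternative.

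P7 rule cells were clustered with scanpy 1.11.5 (2000 variable genes, 20 components, 15 neighbours, Leiden resolution 0.5). CPM within P7 used all listed genes, and comparisons between ages used 27734 shared Ensembl IDs. Summed counts per library were tested with edgeR 4.0.16 (quasi-likelihood, TMM) in R 4.3.3, with Benjamini-Hochberg adjustment over all genes tested and a call at adjusted p under 0.05 and a fold of at least 2. The fit of P7 against E15 has 1 residual degree of freedom, so its spread comes almost wholly from pooling over genes (475 prior degrees of freedom). The 10 rule genes were not tested. The fits were also run on simulated counts as a check of the code, and no result of that check is used here. Intervals are exact 95% and cover counting error only. Values without an E15 replicate are differences of log2 CPM with a prior count of 2 and have no test.

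The cells, their markers and the gene lists were chosen with earlier results of these data known. Genes were named as the 20 of largest ratio at P7 among those with at least 50 CPM and a UMI in 20% of rule cells, up to 10 of smallest ratio, up to 8 per subset or cluster, up to 12 rises and 12 falls between ages at 50 CPM or more, and members of the lists. Some genes that this rule names are not reported here. Other named genes were chosen after their values were seen. Alternatives covered DESeq2 1.42.0, other size factors, filters, a fold-of-2 test, stricter cell limits, no library block and leaving out each E15 replicate. The limits of 3 epithelial UMIs, without the deepest E15 cell, and of more otic epithelium than mesenchyme and fibrocyte UMIs for the E15 comparison were added after the data were seen.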

Additional observations from a re-analysis of the deposited data

How the results depend on the processing

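Of the named called genes checked (88 between ages, 46 at E15), 0 reversed direction under an alternative that was run. Their sizes held less well. Between ages, 57 of 88 were counted as moved without E15 replicate 1 and 61 without replicate 2. At E15, 28 of 46 were counted as moved in either case. These values are differences of log2 CPM and not fitted ones. Of 40 named P7 ratios, 27 moved with at least 3 epithelial UMIs and 22 with the mean of CPM per cell. Over all called genes some were called the opposite way. These were 4 between ages and 6 at E15 in cells richer in otic epithelium UMIs, and 1 in each test with at least 2 UMIs in the rule. With at least 3 epithelial UMIs there was 1 between ages and 0 at E15. Genes not called, such as Bmp4 between ages (-0.75, and 0.38 without E15 replicate 1), could change sign. For P7 against E15, the main counts of 1840 higher and 1192 lower genes became 650 and 434 with DESeq2 and 1070 and 522 with a test against a fold of 2. For E15 rule cells against other epithelial cells, the 674 higher and 776 lower genes became 290 and 241 with DESeq2, 279 and 304 with a test against a fold of 2, 385 higher with at least 2 UMIs in the rule, 313 and 387 in cells richer in otic epithelium UMIs, and 327 and 400 with at least 3 epithelial UMIs. The counts past a fold of 2 within P7 became 403 higher and 348 lower with at least 2 UMIs in the rule, and 249 lower with at least 3 epithelial UMIs. Thinned to 2000 UMIs, the share of rule cells was 1.68% at P7, against 0.732% and 0.853% in the E15 libraries. Without the library as a replicate block, the E15 comparison called 625 higher and 670 lower, of which 617 and 669 were shared with the blocked fit. No paired analysis of age was made, because the labels pair no P7 library with an E15 library. Of 88 called genes checked between ages, 12 were no longer called with DESeq2 and 3 of the 86 tested with at least 3 epithelial UMIs. Precision is limited by the single P7 library and by the 44 and 60 rule cells at E15, where genes under a few CPM rest on single UMIs.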
